A study of Mus musculus with 6 samples.

Results

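Genes for the import and folding of mitochondrial proteins were followed in mouse HACA cells carrying a hairpin against Snail or against Loxl2. The 35 genes were taken from the 19496 gene names on the array by symbol: Timm and Tomm genes with a number, Samm50, Hspd1, Hspe1, Hspa9, Grpel, Pmpc, Phb and Chchd genes and Clpp. They had 37 probes, because Tomm20 and Tomm70a had 2 each, and the brightest probe stood for each gene. All 35 were above the limit for dim probes that left 18501 genes to be tested. The symbols did not use the measured ratios. They also take in genes with other roles in the mitochondrial membranes, such as Chchd3, Chchd6 and the prohibitins described below, and the counts include these.

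Most mitochondrial proteins are made in the cytosol and must enter through the mitochondrial membranes. The TOM complex is the entry gate of the outer membrane, SAM inserts barrel-shaped proteins there, the TIM23 complex carries proteins with a presequence into the matrix, and the TIM22 complex inserts carriers into the inner membrane. Small Tim proteins and the Chchd4 relay act in the space between the membranes. In the matrix, the Hsp70 Hspa9 pulls proteins in, the Pmpc protease removes the presequence, the Hspd1 and Hspe1 chaperonin folds the protein, and Clpp belongs to a protease of the matrix.

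The shSnail cells (2 arrays, replicates 1 and 2) and the shLoxl2 cells (4 arrays, replicates 1 and 2 in both dye orientations) were compared with the control line shGFP, whose RNA lay in the other channel of all 6 arrays. All groups carry a short hairpin RNA. Both shSnail arrays held the silenced RNA in Cy5. The labels do not say whether the replicates are separate cultures, so p-values measure only the spread between these samples, and shGFP counts as 1 control sample whose own spread is left out.

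Per array, red signals exceeded background clearly at 85.4% to 92.4% of the spots and green signals at 55.9% to 74.9%. Snai1 was well above background in 0 of 2 shSnail channels and in 0 of 2 shGFP channels of the shSnail arrays. On the 4 shLoxl2 arrays Snai1 was so in 0 silenced channels and 2 shGFP channels. Loxl2 had a log2 ratio of 0.11 ± 0.12 (SE, n = 2) in shLoxl2 cells over shGFP (limma adjusted p = 0.59). On the 4 shLoxl2 arrays Loxl2 was well above background in 2 silenced channels and 1 shGFP channel, so this ratio lay near the floor. On the shSnail arrays, however, Loxl2 was so in 2 of 2 shSnail and 2 of 2 shGFP channels. No fall of Loxl2 was seen in shLoxl2 cells, and the reason was not tested. The targeted genes thus did not check the labels. Krt5, Krt14, Krt18 and Vim were well above background in both channels of 6 of 6 arrays. Of 2 further epithelial genes, Cdh1 was so in the silenced channel of 5 of 6 arrays and the shGFP channel of 1, and Krt8 in 4 and 2, both with dim probes (mean log2 intensity 7.29 and 7.09). By contrast, Ptprc and Pecam1, which mark leukocytes and endothelium, were so in at most 1 of the 6 arrays in a channel. With 2 samples in each silenced group, the number of arrays limits the precision. In RNA from whole cultures, fewer cells of a type and less RNA per cell cannot be told apart.

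Promoters are shown first for 4 of the genes. All 4 rose in shSnail cells (below), so this choice cannot show how motifs and ratios relate. Hspe1 shares its promoter region with Hspd1. Tomm22 and Timm8b hold matches to motifs of nuclear regulators of mitochondrial genes. Chchd6 holds no match to the ETS, NRF-1 or heat shock motif. Genes that did not pass the test in shSnail cells also held matches, such as Phb2 and Chchd5 with 3 ETS matches each and Chchd4 with 1 NRF-1 match. The sequences are RefSeq promoter windows of GRCm38.p6, 250 bases before to 50 after the start, written 5′ to 3′ on the strand of the gene. Capitals mark the heat shock motif (TTC and GAA with any 2 bases between) and the ETS motif CCGGAAG in Hspe1, and the ETS and NRF-1 motifs in the others, each searched on both strands.
Hspe1, chr1:55087898-55088197, plus strand: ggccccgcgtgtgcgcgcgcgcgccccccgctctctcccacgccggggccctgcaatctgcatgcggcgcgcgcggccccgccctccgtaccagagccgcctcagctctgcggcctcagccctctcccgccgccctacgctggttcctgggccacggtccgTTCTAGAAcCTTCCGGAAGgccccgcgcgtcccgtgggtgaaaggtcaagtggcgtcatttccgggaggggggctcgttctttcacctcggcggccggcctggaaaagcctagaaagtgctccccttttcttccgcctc
Tomm22, chr15:79670618-79670917, plus strand: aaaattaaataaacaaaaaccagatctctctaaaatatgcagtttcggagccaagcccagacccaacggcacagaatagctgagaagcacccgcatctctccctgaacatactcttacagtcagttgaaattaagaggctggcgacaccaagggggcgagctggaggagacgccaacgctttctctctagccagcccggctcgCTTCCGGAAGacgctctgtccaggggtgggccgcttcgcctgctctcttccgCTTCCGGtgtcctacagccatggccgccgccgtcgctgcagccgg
Timm8b, chr9:50603651-50603950, plus strand: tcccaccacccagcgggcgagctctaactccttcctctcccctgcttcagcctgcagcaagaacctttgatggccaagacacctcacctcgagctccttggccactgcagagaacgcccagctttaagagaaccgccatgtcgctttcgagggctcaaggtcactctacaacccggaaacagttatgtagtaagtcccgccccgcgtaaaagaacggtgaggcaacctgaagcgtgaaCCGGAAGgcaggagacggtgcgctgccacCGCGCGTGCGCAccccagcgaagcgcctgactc
Chchd6, chr6:89595603-89595902, minus strand: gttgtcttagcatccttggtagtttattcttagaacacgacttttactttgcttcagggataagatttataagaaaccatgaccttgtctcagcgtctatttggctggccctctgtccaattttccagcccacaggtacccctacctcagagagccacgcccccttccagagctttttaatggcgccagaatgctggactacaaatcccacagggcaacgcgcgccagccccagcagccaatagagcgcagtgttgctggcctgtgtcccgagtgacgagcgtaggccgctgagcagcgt

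In the Hspe1 window 2 heat shock matches began at positions -89 and -79 from the start, and both ETS matches overlapped the nearer of them. A RefSeq window of Hspd1 on the opposite strand covered 285 of the same bases. Windows were matched for 30 of the 35 genes, as 33 windows. Tomm7, Tomm40l, Hspa9, Chchd7 and Chchd8 had no matched window. An ETS match lay in 16 of 33 windows (48.5%), against 8.86% of all 32851 promoter windows. By direction in shSnail cells, it lay in 4 of 11 windows of 10 genes that rose, 1 of the 2 windows of Hspd1, the one gene that fell with a window, and 11 of 20 windows of the others. The NRF-1 consensus was in 3 of 33 windows (9.09%) against 1.27% of all windows, the heat shock motif in 9 (27.3%) against 8.52%, and CCAAT in 12 (36.4%) against 37.4%. The heat shock motif lay in 5 of 11 windows of the genes that rose (45.5%) and 3 of 20 of those that did not pass (15%), the NRF-1 consensus in 18.2% and 5%, and CCAAT in 36.4% and 35%, whereas the ETS shares were 36.4% and 55%. These splits rest on few windows and were not tested. The ETS and heat shock counts are not independent, because the letters CTTCCGGAAG match both motifs. In Tomm22 and Timm10, which both rose, the 1 heat shock match lay within such letters. These matches describe the letters of the windows and were not set against binding of any factor.

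The first comparison asked whether a rise under the Snail hairpin reaches import and folding genes beyond the respiratory chain. In shSnail cells over shGFP, 12 of the 35 genes rose, 2 fell and 21 did not pass the test. Of all 18501 genes, 9.0% were called higher and 12.4% lower. The genes that rose were 4 of the outer membrane (Tomm20, Tomm22, Tomm40l, Tomm7), 5 of the inner membrane and the space between (Timm10, Timm17a, Timm22, Timm44, Timm8b), Chchd6, Hspe1 and Phb, and the genes that fell were Hspa9 and Hspd1. The test was limma over all probes, with Benjamini-Hochberg adjustment at 0.05. Each probe's dye effect, estimated from the dye-swapped shLoxl2 arrays, was removed in full in the fit. The shLoxl2 and shSnail arrays were scanned in separate sessions, and the slope of the shSnail ratios on this effect was 0.452. The full effect may thus be too large for the shSnail arrays, which was not tested. The SE and p pool the spread of the shSnail replicates with that of the shLoxl2 pairs and of their dye effects. The 35 genes had a median log2 fold change of 0.30, against -0.04 over all genes.

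That count depended on how the arrays were normalized. The import and chaperone probes were bright, with a median mean log2 intensity of 11.9 against 8.13 over all genes. With each array centred on its median in place of loess, which follows brightness, 6 of 35 were higher (17.1%) and 4 lower (11.4%), against 23.3% and 20.5% of all genes, and the median was 0.01 against 0.09. With the scanner software's own log ratio, 7 were higher (20%) and 1 lower, against 5.24% and 15.8% of all genes, with a median of 0.31 against -0.27. All 12 genes that rose and both that fell kept their direction under both settings. Of the 12 rises, 5 still passed with median centring and 7 with the scanner software's log ratio. Of the 2 falls, 2 passed with median centring and 0 with the software's log ratio, where the 1 lower gene was neither Hspa9 nor Hspd1.

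Without the dye correction 16 of the 35 genes were higher and 3 lower in shSnail cells over shGFP, against 16.5% and 20.0% of all genes. With the dye effect scaled by its slope 14 were higher and 2 lower, against 9.26% and 14.1%. A left-out replicate of either hairpin also changes the pooled spread, so a lost call need not reflect a changed ratio. Of the 12 rises, 5 still passed without shSnail replicate 1, 6 without shSnail replicate 2, 8 without shLoxl2 replicate 1, which enters through the dye effect, and 7 without shLoxl2 replicate 2. Chchd6, Tomm40l, Tomm7 and Timm17a passed in each of these 4 fits. Of the 2 falls, 0 passed in limma without shSnail replicate 1, shSnail replicate 2 or shLoxl2 replicate 1, although 2, 2 and 3 of the 35 genes were lower there at an unadjusted p under 0.05, and 1 fall passed without shLoxl2 replicate 2.

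**Figure D1:**
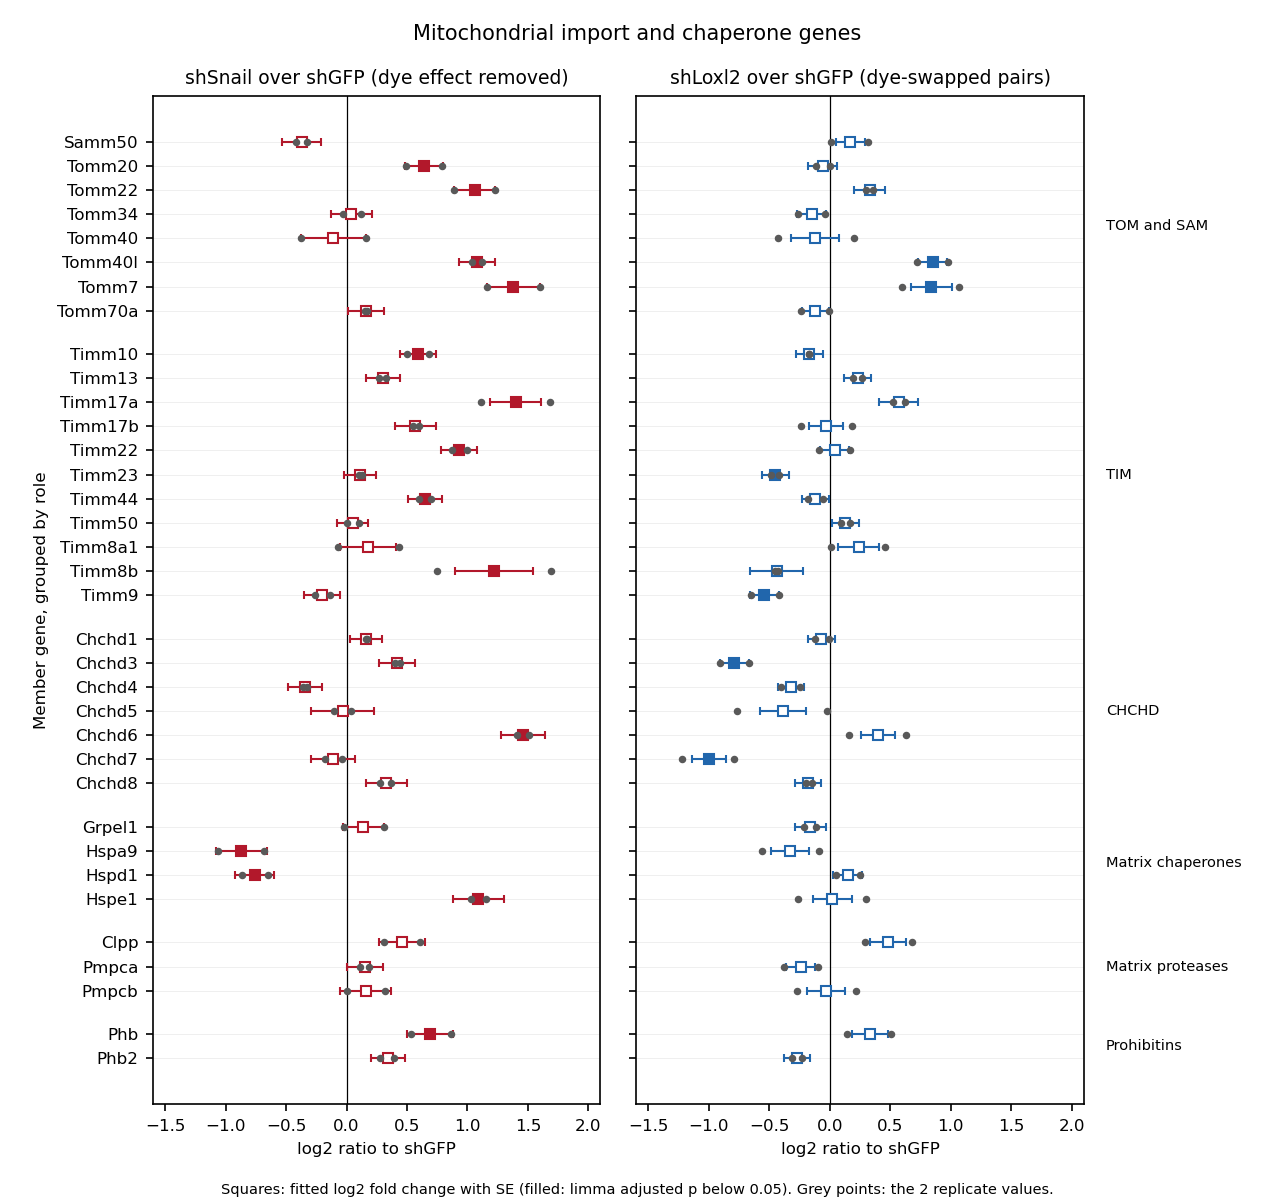
Log2 ratio to shGFP (horizontal axis) of the 35 genes by role, in shSnail cells at left and shLoxl2 cells at right. Squares are fitted values with their SE, filled where limma's adjusted p was below 0.05, and grey points are the 2 replicates. In shSnail cells 12 filled squares lie right of 0 and 2 (Hspa9 and Hspd1) left of it.

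At the outer membrane, Tomm7, a small subunit of the TOM complex (mm8 chromosome 5, probe at 23349736 to 23349795), had dye-corrected log2 ratios of 1.16 and 1.60 in the shSnail replicates over shGFP. The fitted rise was 1.38 ± 0.22 (SE, n = 2), a 2.6-fold difference (limma adjusted p = 0.00821). The dye-swapped shLoxl2 pairs gave 1.07 and 0.60, and Tomm7 rose with that hairpin as well, by 0.84 ± 0.17 (SE, n = 2; limma adjusted p = 0.0282). Tomm40l, a relative of the channel protein Tomm40 (chromosome 1, 173054492 to 173054551), had 1.12 and 1.04 in shSnail cells over shGFP. It rose by 1.08 ± 0.15 (SE, n = 2; limma adjusted p = 0.00524). Its shLoxl2 pairs gave 0.98 and 0.72, a rise of 0.85 ± 0.12 (SE, n = 2; limma adjusted p = 0.0097). Both genes lay above 0 in every replicate of both hairpins.

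Tomm22, the central receptor of the TOM complex (chromosome 15, 79499897 to 79499956), gave 1.23 and 0.89 in shSnail cells over shGFP. It rose by 1.06 ± 0.17 (SE, n = 2; limma adjusted p = 0.00833), while the shLoxl2 pairs gave 0.36 and 0.30, a fitted 0.33 that did not pass (limma adjusted p = 0.165). Without shSnail replicate 1 the adjusted p of its rise was 0.0555.

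Tomm20, the receptor for presequences (chromosome 8, 129820933 to 129820992), had 0.49 and 0.79 in shSnail cells over shGFP and 0.00 and -0.11 in the shLoxl2 pairs. Its rise of 0.64 ± 0.16 (SE, n = 2) in shSnail cells passed at a limma adjusted p of 0.0311, and not when any 1 replicate of either hairpin was left out (adjusted p from 0.0618 to 0.163). Its second probe gave 0.72 ± 0.21 in shSnail cells over shGFP (SE, n = 2; limma adjusted p = 0.054). In the shLoxl2 pairs that probe gave 0.30 and 0.47, a fitted 0.38 (limma adjusted p = 0.197). The probes thus differed under the Loxl2 hairpin, and shSnail minus shLoxl2 was 0.70 for the first and 0.33 for the second (limma adjusted p = 0.0644 and 0.383).

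Tomm40, the channel itself (chromosome 7, 18861636 to 18861821), had -0.38 and 0.16 in shSnail cells over shGFP, values on both sides of 0. Its fitted log2 fold change was -0.11 ± 0.27 (SE, n = 2; limma adjusted p = 0.812). Tomm34, a cytosolic co-chaperone, was at 0.04, and Samm50, the core of the SAM complex, at -0.37 ± 0.16 (SE, n = 2; limma adjusted p = 0.146). Samm50 was dim, and its value moved to 0.33 without the dye correction. The 2 probes of Tomm70a, a receptor for carriers and other proteins with internal signals, disagreed. The brighter gave 0.16 ± 0.15 (SE, n = 2; limma adjusted p = 0.482), and the dimmer, which lies further along the gene (chromosome 16, 57075473 to 57075532), gave -0.82 ± 0.15 (SE, n = 2; limma adjusted p = 0.0113).

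At the inner membrane, 5 of 11 Tim genes rose and 0 fell by limma in shSnail cells over shGFP (6 and 0 at an unadjusted p under 0.05). Their median was 0.57 on the log2 scale, and 10 of 11 were above 0. Timm17a, a subunit of the TIM23 channel (chromosome 1, 137118020 to 137118079), had 1.11 and 1.68 in shSnail cells over shGFP, a rise of 1.40 ± 0.21 (SE, n = 2; limma adjusted p = 0.00654). The shLoxl2 pairs gave 0.62 and 0.52, also above 0, with a fitted 0.57 (limma adjusted p = 0.0715). Timm23, its partner in the channel (chromosome 14, 31009413 to 31009472), had 0.13 and 0.10 in shSnail cells over shGFP, a fitted 0.11 ± 0.13 (SE, n = 2; limma adjusted p = 0.588). Timm23 gave -0.42 and -0.49 in the shLoxl2 pairs and fell by 0.45 on the log2 scale (limma adjusted p = 0.0436). Timm17a lay above 0 in every replicate of both hairpins, and Timm23 near 0 under the Snail hairpin and below 0 under the Loxl2 hairpin.

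Timm22, the channel of the carrier pathway (chromosome 11, 76230544 to 76230603), had 1.0 and 0.87 in shSnail cells over shGFP and 0.17 and -0.09 in the shLoxl2 pairs. It rose by 0.93 ± 0.15 (SE, n = 2; limma adjusted p = 0.00843) in shSnail cells, and its adjusted p was 0.0625 without shSnail replicate 1. Timm44, which ties the Hsp70 Hspa9 to the TIM23 channel (chromosome 8, 4259739 to 4259798), had 0.70 and 0.60 in shSnail cells over shGFP and -0.18 and -0.06 in the shLoxl2 pairs. Its rise of 0.65 ± 0.14 (SE, n = 2; limma adjusted p = 0.022) was 0.17 with median centring (adjusted p = 0.434). The shSnail replicates of both genes lay above every shLoxl2 pair.

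Of the small Tim proteins, which chaperone proteins across the space between the membranes, Timm8b rose by 1.22 ± 0.32 and Timm10 by 0.59 ± 0.15 in shSnail cells over shGFP (SE, n = 2 each; limma adjusted p = 0.0378 and 0.0336). The shSnail replicates of Timm8b stood far apart, at 0.75 and 1.69, and those of Timm10 were 0.68 and 0.50. Timm10 was 0.15 with median centring (adjusted p = 0.553). The small Tim genes Timm9 (-0.20), Timm13 (0.30) and Timm8a1 (0.18) did not pass. Neither did Timm17b (0.57, limma adjusted p = 0.0606) or Timm50 (0.05), a receptor of the TIM23 complex.

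Of the 7 Chchd genes, 1 rose. Chchd6, a subunit of the MICOS complex that shapes the inner membrane folds (chromosome 6, 89348805 to 89348864), had the highest log2 fold change of the 35 genes. It had 1.51 and 1.41 in shSnail cells over shGFP and 0.63 and 0.16 in the shLoxl2 pairs. The rise in shSnail cells was 1.46 ± 0.18 (SE, n = 2), or 2.75-fold (limma adjusted p = 0.00381), and it lay between 1.03 and 1.71 under the alternatives run. Chchd3, another MICOS subunit (chromosome 6, 32722401 to 32722460), had 0.40 and 0.44 in shSnail cells over shGFP (fitted 0.42; limma adjusted p = 0.0884) and -0.67 and -0.91 in the shLoxl2 pairs, where it fell by 0.79 on the log2 scale (limma adjusted p = 0.0112). Its groups lay on opposite sides of 0 in the main fit, but its shSnail value lay between -0.06 and 0.53 under the alternatives run.

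Chchd4, the oxidoreductase of the disulfide relay (chromosome 6, 91430206 to 91430265), had -0.33 and -0.36 in shSnail cells over shGFP and -0.25 and -0.40 in the shLoxl2 pairs. It passed in neither (fitted -0.34 and -0.32; limma adjusted p = 0.129 and 0.117). Chchd1, Chchd5 and Chchd7 lay between -0.11 and 0.16 in shSnail cells. Chchd8 was well above background in 0 of 2 shSnail channels and 1 of 2 shGFP channels of the shSnail arrays, and its dye effect of -0.996 on the log2 scale was the largest in size of the 35 genes. Its fitted 0.33 turned to -0.67 without the dye correction.

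The matrix chaperones split. Hspe1, the lid of the chaperonin (chromosome 1, 55035623 to 55035682), had log2 ratios of 1.22 and 1.34 as measured on the shSnail arrays, or 1.03 and 1.15 after dye correction, and its shLoxl2 pairs gave 0.30 and -0.26. It rose by 1.09 ± 0.21 (SE, n = 2), or 2.13-fold, in shSnail cells over shGFP (limma adjusted p = 0.0147). Hspd1, the barrel of the same chaperonin (chromosome 1, 55022530 to 55022589), had -0.26 and -0.48 as measured on the shSnail arrays and -0.65 and -0.86 after dye correction. Its shLoxl2 pairs gave 0.05 and 0.25. It fell by 0.76 on the log2 scale in shSnail cells, with an SE of 0.16 (n = 2; limma adjusted p = 0.0209). The 2 genes of this shared promoter region thus went in opposite directions, on each shSnail array and with or without the dye correction.

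The size of the Hspd1 fall rested on the dye term. Without that correction it was -0.37 (limma adjusted p = 0.0453). Scaling the dye effect by its slope gave -0.54 (limma adjusted p = 0.0229). Without shLoxl2 replicate 1, shSnail replicate 1 or shSnail replicate 2 its adjusted p was 0.0783, 0.067 or 0.115. For Hspe1 the adjusted p was 0.0658 without shSnail replicate 1 and 0.0744 without shSnail replicate 2.

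Hspa9, the matrix Hsp70 (chromosome 18, 35063994 to 35064053), had -1.06 and -0.68 in shSnail cells over shGFP and -0.56 and -0.09 in the shLoxl2 pairs. It fell by 0.87 on the log2 scale in shSnail cells, with an SE of 0.21 (n = 2; limma adjusted p = 0.0308), and lay below 0 on each of the 6 arrays. Its call was lost when any 1 replicate was left out (adjusted p from 0.0527 to 0.164). It was saturated in each channel on 1 of the 4 shLoxl2 arrays. Grpel1, its nucleotide exchange factor, was at 0.14 ± 0.17 (SE, n = 2; limma adjusted p = 0.601).

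**Figure D2:**
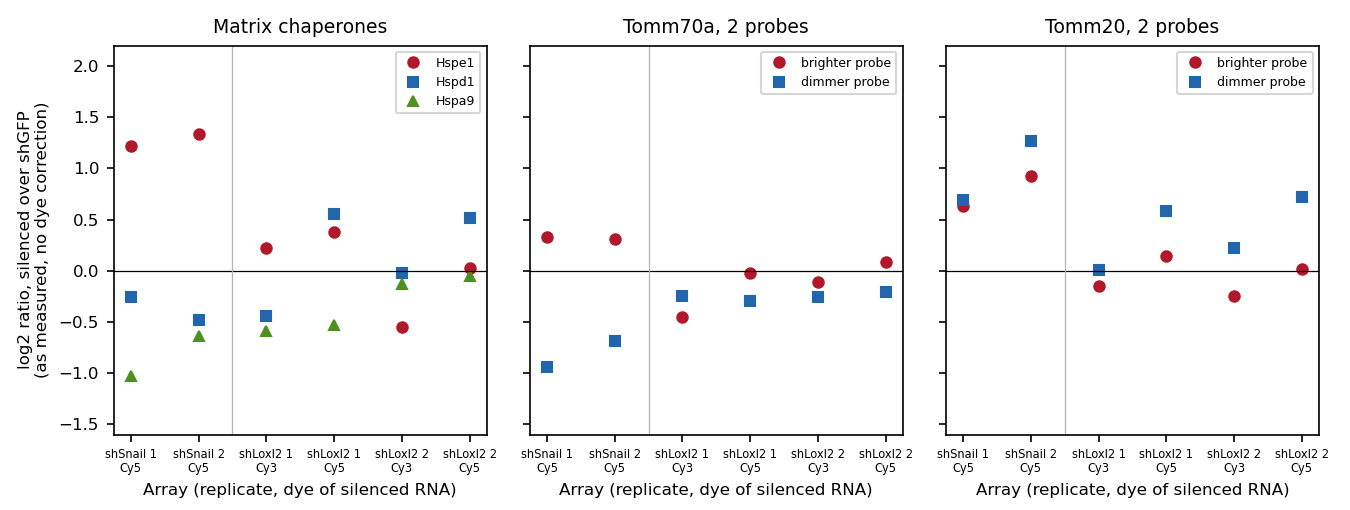
Log2 ratio of silenced over shGFP RNA as measured on each of the 6 arrays (vertical axis), for Hspe1, Hspd1 and Hspa9 and for both probes of Tomm70a and Tomm20. Points are single arrays, labelled with replicate and dye. Hspe1 is above 1 on both shSnail arrays while Hspd1 and Hspa9 are below 0, and the Tomm70a probes lie on opposite sides of 0 there.

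Of the 3 matrix protease genes, 0 were called by limma in shSnail cells over shGFP, and 1 was higher at an unadjusted p under 0.05. Clpp (chromosome 17, 56681233 to 56681293) had 0.61 and 0.31 in shSnail cells over shGFP and 0.68 and 0.29 in the shLoxl2 pairs, so the replicates of both hairpins overlapped (limma adjusted p = 0.126 and 0.09). The subunits of the presequence protease, Pmpca and Pmpcb, had dye-corrected ratios of 0.11 and 0.19 for Pmpca and 0.32 and 0.00 for Pmpcb in shSnail cells over shGFP. Their fitted values of 0.15 and 0.16 had SEs of 0.15 and 0.21 (limma adjusted p = 0.535 and 0.638).

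The prohibitins form a ring scaffold in the inner membrane, and 1 of the 2 rose. Phb (chromosome 11, 95496645 to 95496704) had 0.86 and 0.53 in shSnail cells over shGFP and 0.51 and 0.14 in the shLoxl2 pairs. It rose by 0.69 ± 0.19 (SE, n = 2; limma adjusted p = 0.044) in shSnail cells, a call lost when any 1 replicate was left out (adjusted p from 0.0709 to 0.224). With median centring it was 0.33 (adjusted p = 0.275). Phb2 (chromosome 6, 124681648 to 124682276) had 0.28 and 0.39 in shSnail cells over shGFP and -0.31 and -0.23 in the shLoxl2 pairs, and its fitted 0.34 in shSnail cells did not pass (limma adjusted p = 0.13).

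Other mitochondrial gene lists were set beside these genes. Of 81 respiratory chain genes, 50 rose and 1 fell in shSnail cells over shGFP (61.7% and 1.23%), with a median log2 fold change of 0.84. Cox7a2, a subunit of cytochrome c oxidase, rose by 2.36, and Atp5g1, of the ATP synthase rotor, by 1.65 (limma adjusted p = 0.0015 for each). Of 75 genes of the mitochondrial ribosome, 39 rose and 2 fell (52% and 2.67%), with a median of 0.65, among them Mrpl11 at 1.83 (limma adjusted p = 0.00132). The import and chaperone genes had a lower share of rises (34.3%) and a lower median (0.30) than either list, a description over lists and not a test.

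With median centring the respiratory chain still had 33 genes higher and 1 lower (40.7% and 1.23%), with a median of 0.54, and the mitochondrial ribosome 20 higher and 6 lower (26.7% and 8%), with a median of 0.26. The share of the import and chaperone genes called higher there (17.1%) lay below that of all genes (23.3%). The respiratory chain lay above that share (40.7%), and the mitochondrial ribosome lay near it (26.7%).

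Of 28 further import, membrane-organising and protease genes, 6 rose and 4 fell in shSnail cells over shGFP (21.4% and 14.3%), with a median of 0.09. Htra2, a protease of the space between the membranes, rose by 1.15 (limma adjusted p = 0.0032), and the gene listed as 2010100O12Rik, which is Romo1 by its accession, by 1.14 (limma adjusted p = 0.00556). Yme1l1, an inner membrane protease that turns over import subunits, fell by 2.04 on the log2 scale (limma adjusted p = 0.00231), and Mtx2, a partner of Samm50, fell by 1.08 (limma adjusted p = 0.00419). Of 18 citric acid cycle genes 2 rose and 2 fell (11.1% each), and of 42 mitochondrial carriers 6 rose and 4 fell (14.3% and 9.52%). Of 19 regulators of mitochondrial biogenesis and stress 1 rose and 3 fell (5.26% and 15.8%). These shares lay near those of all genes (9.0% higher and 12.4% lower). Gabpb1, a subunit of a regulator that binds ETS motifs, fell by 1.82 on the log2 scale in shSnail cells (limma adjusted p = 0.00132). It fell by 1.69 in shLoxl2 cells (limma adjusted p = 0.00149). Gabpa, of the same regulator, was at -0.43 in shSnail cells and did not pass (limma adjusted p = 0.213).

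Cytosolic chaperones had 1 of 30 higher and 7 lower (3.33% and 23.3%), with a median of -0.23. Cct4, of the cytosolic chaperonin, fell by 1.27 on the log2 scale and Hsph1, listed as Hsp110, by 1.12 (limma adjusted p = 0.00457 and 0.00332). Of 46 proteasome genes 9 rose and 6 fell (19.6% and 13%). Lists of leukocyte (8 genes), endothelial (4) and muscle and neural genes (6) had 0 genes called in shSnail cells over shGFP by limma (1 higher leukocyte gene and 1 lower muscle or neural gene at an unadjusted p under 0.05). Their medians were 0.14, -0.14 and -0.01.

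**Figure D3:**
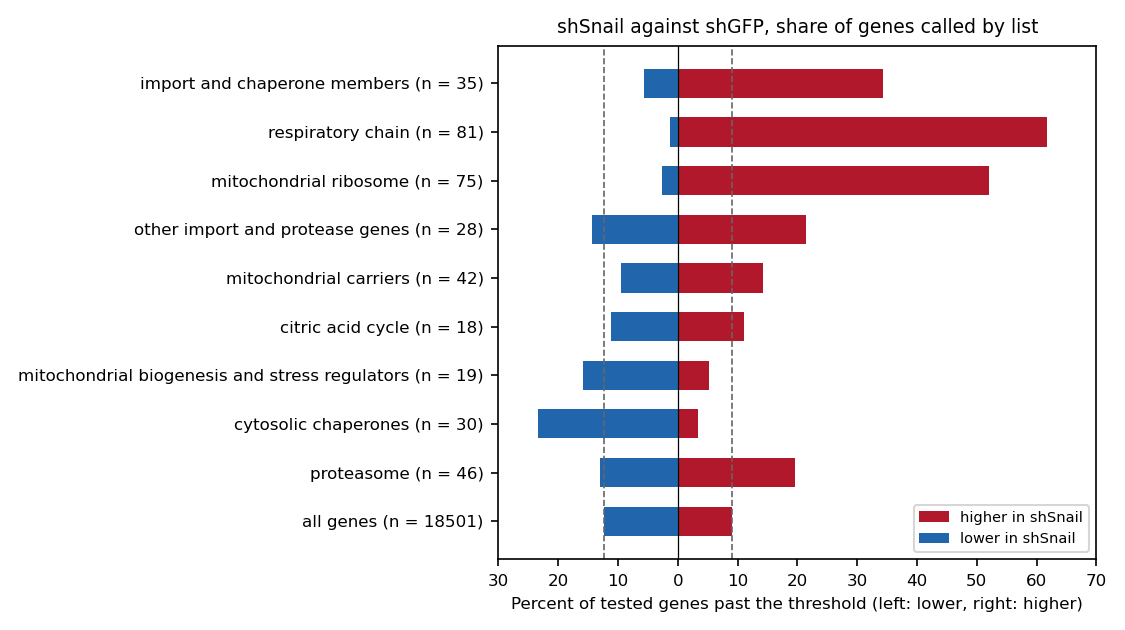
Percent of tested genes called higher (red, right) or lower (blue, left) in shSnail cells over shGFP, by gene list, with dashed lines at the shares of all genes. The import and chaperone genes (34.3% higher) lie above all genes (9.0%) and below the respiratory chain (61.7%).

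The second comparison set shLoxl2 cells against shGFP. Here 2 of the 35 genes rose (Tomm7, Tomm40l) and 4 fell, whereas 8.25% of all genes were called higher and 5.85% lower. The genes that fell were Chchd3, Timm23, Timm9 and Chchd7. Chchd7 had -0.79 and -1.22 in the shLoxl2 pairs and fell by 1.0 on the log2 scale (limma adjusted p = 0.0097), and Timm9 had -0.65 and -0.42 and fell by 0.54 (limma adjusted p = 0.0359). With 1 replicate left out, 2 or 3 of the 4 falls still passed. The median of the 35 was -0.07, against -0.01 over all genes, and 14 of 35 were above 0, against 27 of 35 in shSnail cells. Both comparisons use the same shGFP RNA, and the shSnail values use the dye effect of the shLoxl2 arrays. Over all tested probes, the 2 swapped shLoxl2 arrays of a pair hardly correlated as silenced over shGFP (0.024 and -0.0297). Each shLoxl2 pair value is thus an average of arrays that differed strongly by dye.

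The third comparison set shSnail directly against shLoxl2 on the 4 arrays with silenced RNA in Cy5. In shSnail cells relative to shLoxl2 cells, 8 genes were higher (Timm10, Timm22, Timm44, Timm8b, Chchd3, Chchd6, Chchd7, Hspe1) and 1 was lower (Hspd1), and 4.34% of all genes were called higher and 8.51% lower. The largest difference, shSnail minus shLoxl2, was 1.67 ± 0.36 (SE, n = 2 each) for Timm8b, whose Cy5 arrays read 0.98 and 1.92 in shSnail cells and -0.45 and 0.03 in shLoxl2 cells (limma adjusted p = 0.0452). Chchd3 differed by 1.21 ± 0.18 (SE, n = 2 each; limma adjusted p = 0.0224), with 0.51 and 0.55 on the shSnail arrays and -0.52 and -0.85 on the shLoxl2 arrays. The groups of these 2 genes did not overlap.

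Hspe1 differed by 1.07 ± 0.19 and Hspd1 by -0.91 ± 0.16 (SE, n = 2 each; limma adjusted p = 0.0296 and 0.0311), and no dye term enters here. The Hspd1 arrays read -0.26 and -0.48 in shSnail cells and 0.55 and 0.52 in shLoxl2 cells. Tomm7 and Tomm40l, which rose under both hairpins, differed between them by 0.54 and 0.23 (limma adjusted p = 0.161 and 0.364). The median difference of the 35 genes was 0.37, against -0.04 over all genes. With either shSnail replicate left out, 0 of the 35 genes were called by limma in this comparison, against 10 higher and 1 lower at an unadjusted p under 0.05 without replicate 1 and 9 and 1 without replicate 2. The shSnail and shLoxl2 arrays were scanned in separate sessions and extracted with differently named protocols, per the file headers, so session and hairpin cannot be told apart.

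**Figure D4:**
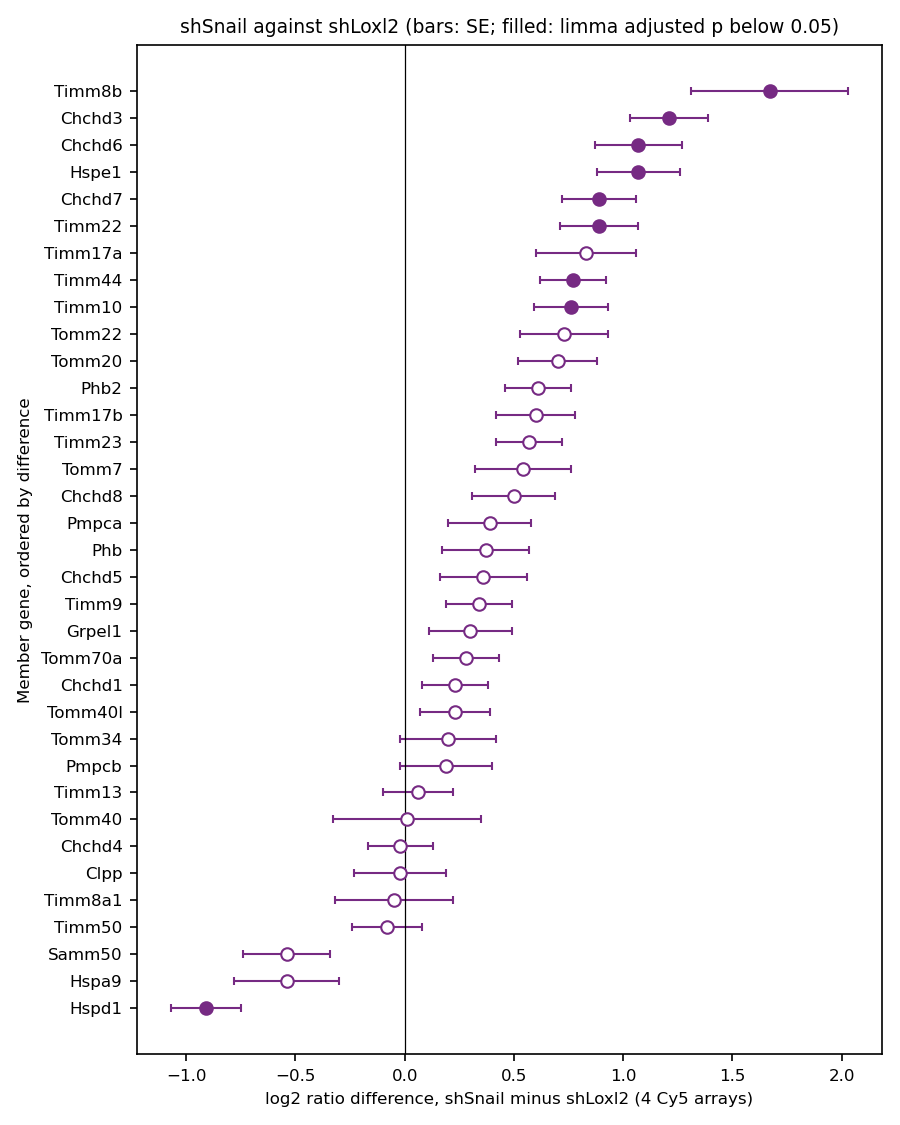
Difference in log2 ratio, shSnail minus shLoxl2, on the 4 Cy5 arrays (horizontal axis) for the 35 genes in order of the difference, with bars for the SE and filled points where limma's adjusted p was below 0.05. Timm8b lies highest at 1.67 and Hspd1 lowest at -0.91.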

How the data were processed

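Spot intensity values of both colours were deposited as read by Agilent's extraction software, whose version is 9.5.1.1 in the file headers and 6.1.1 in the submitters' processing notes. The same files hold a log10 ratio of Cy5 over Cy3 from that software, per the file headers. In the authors' value table, which rounds those log10 ratios, 5 columns matched their own array within 0.006 at 100% of spots. The column of shSnail replicate 2 matched the scanner file of replicate 1 (its own at 9.37%), so the table was an alternative only, with a single shSnail array.

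From the mean intensities, limma 3.58.1 (R 4.3.3, data.table version 1.17.8) made normexp-corrected (offset 50), loess-normalized log2 ratios. Control spots (736) and outlier spots had weight 0 in the loess. After averaging, 21318 spots became 20868 probes, and 19751 entered the test because 1 channel or both rose well above background on 2 or more arrays. Probe positions are in mm8 as the files give them. RefSeq accessions (GRCm38.p6) named 14711 probes.

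Each shLoxl2 number had a technical dye swap, averaged to 1 value. Over all tested probes, the 2 arrays of a pair, both read as silenced over shGFP, correlated at 0.024 in number 1 and -0.0297 in number 2. The pair averages of the 2 numbers correlated at 0.675 and their dye effects at 0.793. For shSnail the dye effect came from the sums of the swapped ratios (SD over probes 0.463, slope of the shSnail ratios on it 0.452). Replicate numbers were not shown to pair samples. Both fits against shGFP took their spread from the values of both hairpins together. Linear models were fitted with lmFit and moderated with eBayes (limma), p-values were adjusted over all tested probes by Benjamini-Hochberg (threshold 0.05), and the fits were tested on simulated data. Members and lists were chosen with earlier results of these data known. Replicate values are given for the 3 genes of each role with the smallest p in shSnail over shGFP and for genes chosen by role, and other lists name up to 4 genes by smallest p. Background correction, normalization, the dim-probe filter, dye treatment, replicates and probe choice were varied.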

Additional observations from a re-analysis of the deposited data

How the results depend on the processing

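All called members kept their direction under every alternative run. The share of all genes called also moved with the setting, in shSnail over shGFP from 9.0% higher to 23.3% with median centring. It is given above only for median centring, the software's log ratio and the dye settings of that comparison. The counts below therefore describe dependence on processing and not an excess over all genes. For shSnail over shGFP (12 higher, 2 lower), median centring gave 6 and 4, the scanner software's log ratio 7 and 1, and the authors' deposited table, used with a single shSnail array, gave 0 and 0 by limma (9 and 2 at an unadjusted p under 0.05). Leaving out 1 replicate gave 5 to 8 higher and 0 to 1 lower. The other counts for this comparison were within 1.5 times. For shLoxl2 over shGFP (2 higher, 4 lower), an offset of 16 gave 1 and 2, and the software's log ratio and the table each gave 0 and 0 by limma (3 and 5, and 2 and 3, at an unadjusted p under 0.05). The Cy5 arrays alone and the Cy3 arrays alone each gave 5 higher, and leaving out 1 replicate gave 1 to 3 higher and 2 to 3 lower.

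For shSnail against shLoxl2 (8 higher, 1 lower), no background subtraction gave 15 higher, an offset of 16 gave 1 and 0, median centring 4 and 2, the software's log ratio 1 and 0, and the table gave 0 and 0 by limma (3 and 0 at an unadjusted p under 0.05). Leaving out 1 replicate gave 0 to 10 higher and 0 to 2 lower. With the members also named by current RefSeq symbol, chosen after seeing the data, 2 were lower (Timm21 was added). The replicate block gave 9 higher and 1 lower, and the deviations of same-numbered arrays correlated at 0.205, with only 2 pairs. Among values that passed the threshold in either setting, the sign turned for Chchd8 in shSnail cells without dye correction (-0.67), and with the Cy3 arrays alone in shLoxl2 cells for Chchd8 (0.82) and Samm50 (-0.54), both dim. Members that passed in neither setting also crossed 0, such as Samm50 in shSnail cells without dye correction (0.33). The cause of these changes was not tested, except that fewer arrays enter where a replicate is left out. A slide block was not run, since each slide held 1 array. The added settings for the respiratory chain and mitochondrial ribosome were chosen after seeing the data.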

Other observations

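Genes of the same families that the array lists under older names were found by RefSeq accession. Timm10b, a small Tim protein listed as Fxc1, rose by 0.88 ± 0.19 (SE, n = 2) in shSnail cells over shGFP (limma adjusted p = 0.0201), with 0.77 and 1.06 as measured on the shSnail arrays. Timm21, of the TIM23 complex, was at -0.51 there (limma adjusted p = 0.0754) and at -0.93 in shSnail minus shLoxl2 (limma adjusted p = 0.0266). Timm29 was at 0.40 and Chchd10 at -0.23 in shSnail cells over shGFP, and neither passed (limma adjusted p = 0.0759 and 0.455).

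Of the 28 further import, membrane-organising and protease genes, the other 6 called in shSnail cells over shGFP were named after their values were seen. Immt and Apoo (listed as 0610008C08Rik), of the MICOS complex, rose by 0.81 and 0.82 (limma adjusted p = 0.00972 and 0.0209), while Chchd3 of the same complex did not pass (0.42; limma adjusted p = 0.0884). Dnajc19 and Dnajc15, relatives within the import motor, rose by 0.95 and 0.86 (limma adjusted p = 0.0094 and 0.0165), while Pam16 of that motor, listed as Magmas, did not pass (0.67; limma adjusted p = 0.0624). Afg3l1, of an inner membrane protease, fell by 1.16 on the log2 scale and Dnaja3, a matrix co-chaperone, by 0.69 (limma adjusted p = 0.00618 and 0.0335). No test was made of either complex as a group.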
